A study of Homo sapiens with 8 samples.

Results

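The human genome holds a large set of genes whose symbols start with KCN, and most of them code for the pores of potassium channels or for subunits that attach to those pores. Of the 60659 genes of the count table, of which 19919 are protein-coding in GENCODE, 96 are protein-coding with such a symbol, and these 96 were the genes described here. They were sorted by the known architecture of their proteins into 17 pore subunits of the voltage-gated Kv1 to Kv4 families (KCNA, KCNB, KCNC, KCND), 5 Kv7 channels (KCNQ), 8 EAG, ERG and ELK channels (KCNH) and 10 silent Kv subunits (KCNF, KCNG, KCNS, KCNV). The other members were 8 channels gated by calcium or sodium (KCNMA1, KCNN, KCNT, KCNU1), 16 inward rectifiers (KCNJ), 15 tandem-pore K2P leak channels (KCNK) and 17 auxiliary subunits. Potassium channels let K+ flow out of the cell down its gradient, which sets the resting potential, ends the action potential and limits repetitive firing. Voltage-gated channels open on depolarization, inward rectifiers and K2P channels hold the potential at rest, and the channels gated by calcium or sodium couple firing to the ions that enter. Auxiliary subunits change the gating, the trafficking or the surface level of the pores, and silent subunits form no working channel on their own but join Kv2 pores. A change of outward current is a known part of the maturation of neuroblastoma cells towards neurons.

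The libraries came from SK-N-SH, a human neuroblastoma line whose cultures hold neuron-like and flat substrate-adherent cells. All 4 groups had 10 μM all-trans retinoic acid (ATRA) in differentiation medium, for 24 h by the labels, and each group had 2 libraries, given as biological replicates. Nothing more is said of separate cultures, so p-values measure the spread between these libraries. The overexpression experiment set parental cells with doxycycline (Dox) against cells with Dox-inducible FLAG ZMYND8, a chromatin reader. By the methods the inducible gene was carried by a lentivirus in a G418-selected culture, so its cells were a selected pool, while the labels name parental cells and no vector control. The knockdown experiment set ZMYND8 knockdown against KD control cells, both without a mention of Dox. The methods describe both lentiviral shRNA and a gRNA knockout of ZMYND8, and do not say how the knockdown of these libraries was made. The question put to the KCN genes was which of them differed with more and with less ZMYND8 in cells under ATRA.

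The libraries held 38316523 to 56256979 counts on genes, and KCN genes took 0.0542% to 0.0991% of them. ZMYND8 itself had 3089 and 3612 counts in parental and 220691 and 182849 in overexpression libraries, and 3128 and 3374 in KD control and 1641 and 1640 in knockdown libraries. The excess in overexpression was therefore far larger than the deficit in knockdown, where the log2 fold change was -0.94 (SE, its standard error, 0.056). Of 10 markers of adrenergic neuroblastoma cells, the neuron-like type, 9 were tested in overexpression, and 6 were higher and 0 lower. By the same thresholds, given below, 11.8% of all genes tested were higher and 6.84% lower. The summed normalized count of the adrenergic markers was 17463 to 17571 in parental and 69080 to 73278 in overexpression libraries. TH, a defining enzyme of that type, had at most 5 counts in any library. Of 10 markers of the mesenchymal, substrate-adherent type, 1 was higher and 7 were lower, with sums of 545524 to 571369 in parental and 183995 to 196247 in overexpression libraries. SOX10, the defining factor of Schwann cells and glia, had at most 1 count, and of the 6 genes on that list ERBB3 and S100B were higher in overexpression. In knockdown none of the 3 lists had a member past all thresholds. At an adjusted p below 0.05, 4 of 8 adrenergic markers tested were lower and 0 higher, and 6 of 10 mesenchymal markers were higher and 2 lower. The 2 lower were PRRX1 and SNAI2, with log2 fold changes of -0.98 and -0.41. Of all genes tested in knockdown, 13.4% were higher and 10.8% lower at that p. The adrenergic sums were 53268 to 56921 in KD control and 42785 to 49402 in knockdown libraries, and the mesenchymal sums 255933 to 264469 and 322578 to 341673, without overlap. The mitochondrial share of counts was 0.11% to 0.168% in the overexpression experiment and 2.92% to 3.41% in the knockdown experiment, so the experiments also differed in their RNA. Part of what follows may move with these cell states, which was not tested, and in bulk RNA fewer cells of a type and less RNA per cell cannot be told apart.

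Promoter windows show what the regulatory DNA of members that differed looks like. RefSeq windows of 300 bases around annotated transcript starts on GRCh38.p14 were at hand for 72 of the 96 members, with 110 windows in all. Shown are KCNK3 and KCNH6, which were higher in overexpression and were the members with a match to TTCAGCACC or its complement GGTGCTGAA, the left arm of RE1, the element bound by the neuronal repressor REST. KCNJ6, which was counted in overexpression libraries only, is shown with its matches to the GC box GGGCGG or CCGCCC. KCNAB1, lower in both experiments, is shown with its match to the CCAAT box, CCAAT or ATTGG. Capitals mark these matches, and each window is read 5′ to 3′ on the strand of the gene. The windows lie at chr2:26692472-26692771 (plus strand), chr17:63523108-63523407 (plus strand), chr21:37916408-37916707 (minus strand) and chr3:156120298-156120597 (plus strand), in this order.
KCNK3: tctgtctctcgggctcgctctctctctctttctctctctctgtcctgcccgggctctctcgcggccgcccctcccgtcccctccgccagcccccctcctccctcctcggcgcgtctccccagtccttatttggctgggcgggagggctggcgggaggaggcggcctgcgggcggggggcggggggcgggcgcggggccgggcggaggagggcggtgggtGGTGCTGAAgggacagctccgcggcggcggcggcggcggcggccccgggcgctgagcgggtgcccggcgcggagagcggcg
KCNH6: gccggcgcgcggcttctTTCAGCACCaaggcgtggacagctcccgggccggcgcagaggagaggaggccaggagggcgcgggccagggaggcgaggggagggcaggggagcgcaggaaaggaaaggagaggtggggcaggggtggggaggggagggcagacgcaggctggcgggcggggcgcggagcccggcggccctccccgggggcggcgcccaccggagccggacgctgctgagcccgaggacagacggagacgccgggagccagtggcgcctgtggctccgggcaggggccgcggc
KCNJ6: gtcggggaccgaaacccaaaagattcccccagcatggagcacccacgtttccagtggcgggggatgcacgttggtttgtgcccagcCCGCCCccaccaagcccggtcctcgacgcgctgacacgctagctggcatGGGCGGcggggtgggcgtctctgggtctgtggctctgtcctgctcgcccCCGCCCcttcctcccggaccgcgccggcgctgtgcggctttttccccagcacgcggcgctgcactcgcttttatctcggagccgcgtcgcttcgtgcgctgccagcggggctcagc
KCNAB1: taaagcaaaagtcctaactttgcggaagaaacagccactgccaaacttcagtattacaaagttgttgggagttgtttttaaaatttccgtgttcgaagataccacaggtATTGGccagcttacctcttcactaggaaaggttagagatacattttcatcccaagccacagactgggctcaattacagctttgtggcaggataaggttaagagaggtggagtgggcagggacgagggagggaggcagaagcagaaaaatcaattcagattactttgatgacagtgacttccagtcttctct

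The first 3 windows held 39, 33 and 33 CG dinucleotides, and the KCNAB1 window held 4. The RE1 arm was present in 2 of the 110 member windows and in 0.376% of all 35116 promoter windows. The GC box was in 50.9% of member windows and 45.0% of all, CCAAT in 35.5% and 34.6%, and TATAAA or TTTATA in 8.18% and 11.5%. AGGTCA or TGACCT, a single arm of the site of nuclear receptors that include the retinoic acid receptors, was in 7.27% of member windows and 13.8% of all. These are matches of letters and not sites of binding.

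More ZMYND8 went with higher counts of many potassium channel genes. In overexpression against parental libraries, 36 KCN genes were called higher and 6 lower, where all 20835 genes tested gave 11.8% higher and 6.84% lower. A call needed 3 things, namely an adjusted p under 0.05 (quasi-likelihood test of edgeR, Benjamini-Hochberg adjusted over all genes tested), a change of 1 log2 unit or more in either direction, and a normalized count averaging over 20. A normalized count is a count scaled by its library's TMM factor and size. Of the 96 members, 75 had enough counts to be tested, 33 of these were not called, and 21 were too low to test. A gene low in parental cells passes such a filter through its overexpression counts, so the count of tested members is itself tied to the direction. The median log2 fold change of the tested members was 2.52, against 0.03 over all genes tested. Of the 38 members with a mean above 100, 22 were called higher and 5 lower, beside 9.59% and 7.69% of protein-coding genes at that level. That mean covers both groups, so a gene such as KCNJ6, with 0 parental counts, passed it through overexpression alone. The median and the counts at that level are thus tied to the direction as well. The called genes came from every class, in unequal shares of its members, which ran from 7 of 8 EAG, ERG and ELK channels to 2 of 15 K2P channels and 2 of 17 auxiliary subunits for higher calls. The count threshold bears on these shares, since only 5 of the 15 K2P channels had a mean above 20.

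**Figure D1:**
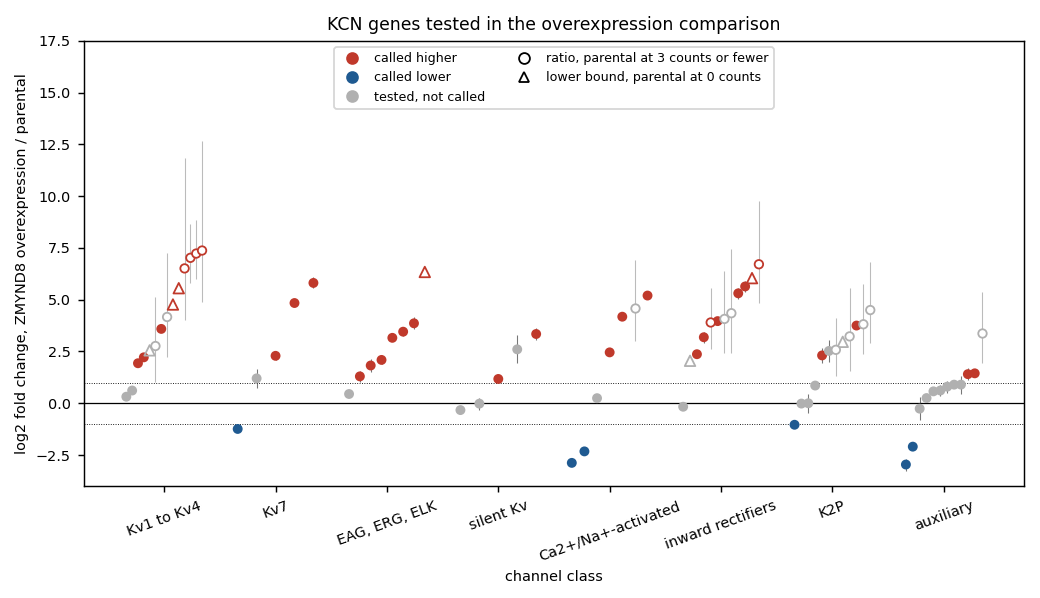
Log2 fold change (y axis) of the 75 KCN genes tested in ZMYND8 overexpression against parental libraries, by channel class (x axis). Filled points are fitted values with standard errors, open circles are ratios with 95% counting intervals where both parental libraries had 3 counts or fewer, and triangles are lower bounds where both had 0. Every EAG, ERG and ELK channel lies above 0, and the 6 genes called lower fall in 4 classes.

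The members also differed in whether they were counted at all. In parental libraries 41 of the 96 had 3 counts or fewer in both replicates and 18 had none, against 15 and 8 in overexpression libraries, 32 and 22 in KD control and 33 and 23 in knockdown libraries. The genes with 0 counts in all 8 libraries were KCNE3, KCNMB1, KCNU1, KCNJ13, KCNK16 and KCNK17. Another 6, KCNA1, KCNB2, KCND3, KCNJ6, KCNJ18 and KCNV1, had 0 counts in every parental, KD control and knockdown library and more than 3 in both overexpression libraries. A library with 0 counts allows up to 3, so bounds for such genes were taken against 3 counts per library. The numbers of genes at or near 0 were not taken over all genes. Whether they are particular to KCN genes was therefore not tested.

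Voltage-gated Kv1 to Kv4 pores, which carry the delayed rectifier and A-type currents of neurons, had 9 members called higher, 0 called lower, 5 tested without a call and 3 too low to test. KCNA2, the Kv1.2 pore of axons, had 2 and 3 counts in parental, 436 and 337 in overexpression, 59 and 51 in KD control and 40 and 54 in knockdown libraries. Overexpression stood far above every other group, and the ratio to parental was 150 with a 95% counting interval of 63.9 to 462 (edgeR adjusted p = 2.78e-09). KCNA3 (Kv1.3), which lies 41.0 kb from KCNA2, had 2 and 3 counts in parental and 354 and 316 in overexpression libraries, a ratio of 130 (55.3 to 401). KCNB2 (Kv2.2), a delayed rectifier pore, had 147 and 144 counts in overexpression and 0 elsewhere, at least 47.0-fold higher than parental. KCND3 (Kv4.3), an A-type pore, had 93 and 77 counts in overexpression and 0 elsewhere, at least 27.2-fold higher. KCND1 (Kv4.1) was the most abundant pore of the class per kb of exon over the 8 libraries and was called in neither comparison. It had 578 and 746 counts in parental, 897 and 794 in overexpression, 1314 and 1357 in KD control and 808 and 735 in knockdown libraries. Its log2 fold change was 0.31 (SE 0.084) in overexpression and -0.74 (SE 0.079) in knockdown. KCNC1, the fast Kv3.1 pore, was higher with a log2 fold change of 2.22, and KCNC2 and KCND2, also called higher, had at most 1 count in a parental library. These 3 were named after their values were seen.

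Kv7 channels carry the M-current, which muscarinic receptors shut. All 5 were tested, 3 were higher, 1 was lower and 1 was not called. KCNQ3, a subunit of the M-channel, had 30 and 48 counts in parental and 221 and 172 in overexpression libraries, a log2 fold change of 2.29 (SE 0.203). KCNQ1, the pore of the cardiac slow delayed rectifier, had 4 and 5 counts in parental and 272 and 259 in overexpression libraries (log2 fold change 5.81, SE 0.265). Of the exonic 31-base sequences of KCNQ1, 53.9% also occur on alternate contigs of GRCh38, so its absolute count is uncertain. KCNQ5 went the other way, with 1257 and 1503 counts in parental and 702 and 508 in overexpression libraries (log2 fold change -1.24, SE 0.080, adjusted p = 2.72e-07).

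EAG, ERG and ELK channels, which repolarize slowly and shape excitability, had 7 of 8 members higher and 0 lower. KCNH2, the hERG channel of heart and neuroblastoma cells, had 558 and 715 counts in parental, 6359 and 5337 in overexpression, 4718 and 4785 in KD control and 3677 and 3579 in knockdown libraries. The parental libraries stood alone at the bottom, and the log2 fold change was 3.16 (SE 0.058, adjusted p = 4.46e-11). KCNH6, the ERG2 channel whose promoter is shown above, had 8 and 12 counts in parental and 142 and 157 in overexpression libraries, with 95 and 100 in KD control and 58 and 61 in knockdown libraries. Its log2 fold change was 3.86 (SE 0.288). KCNH7, the ERG3 channel, had 0 counts in parental and 276 and 229 in overexpression libraries, at least 80.8-fold higher, while KD control libraries had 5 and 5 and knockdown libraries 1 and 1. KCNH8, an ELK channel, had 25 and 22 counts in parental and 307 and 231 in overexpression libraries (log2 fold change 3.45, SE 0.206). KCNH1, KCNH4 and KCNH5 were higher with log2 fold changes of 1.82, 1.30 and 2.09, and KCNH3 had 0.45 and was not called. The strand setting of the counting was not stated, and 36.9% of the KCNH1 exon bases overlap a gene on the other strand.

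Silent Kv subunits were low. Of 10 members 2 were higher, 0 were lower, 3 were tested without a call and 5 were too low to test. KCNS3, which modifies Kv2 currents, had 12 and 18 counts in parental and 147 and 165 in overexpression libraries (log2 fold change 3.34, SE 0.271), with 3 to 14 in the libraries of the knockdown experiment. KCNG3 had 47 and 51 counts in parental and 135 and 95 in overexpression libraries, a log2 fold change of 1.17 (SE 0.208). In KD control libraries KCNG3 had 193 and 194 counts, more than in overexpression. KCNG1, the most abundant of the class, had 297 and 414 counts in parental and 344 and 240 in overexpression libraries, values that overlap before normalization, and it was not called (log2 fold change -0.33).

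**Figure D2:**
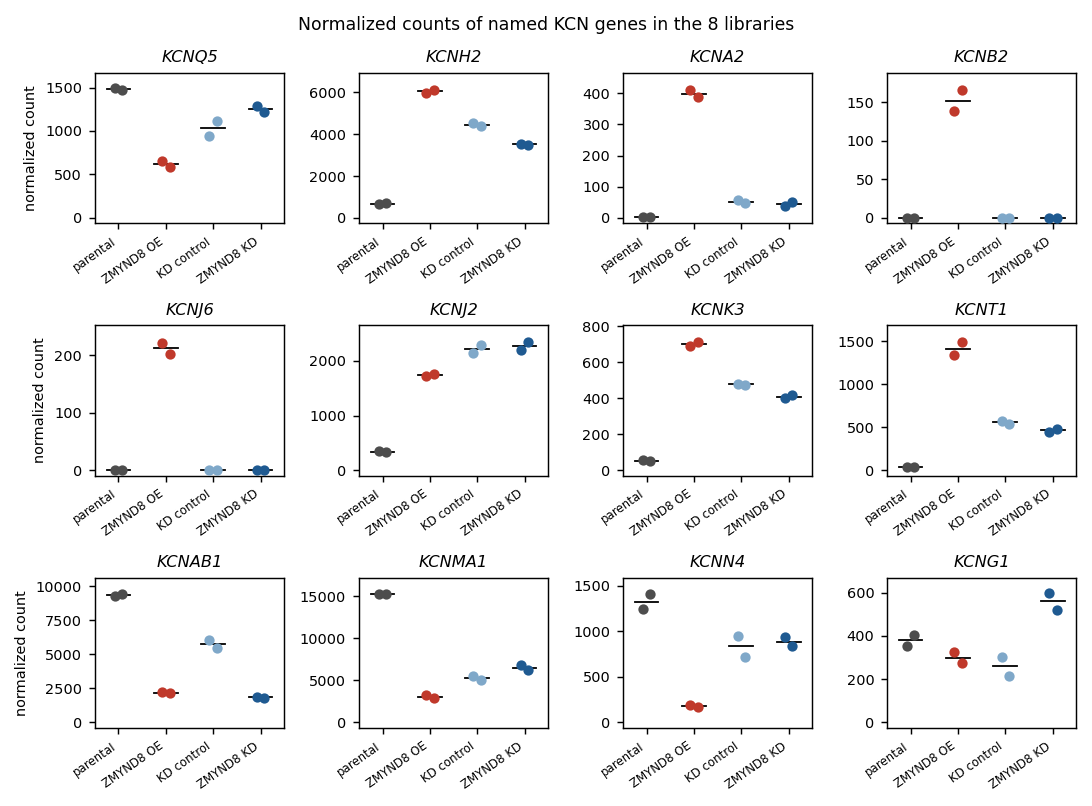
Normalized counts (y axis, each panel with its own scale) of 12 named KCN genes in the 4 groups (x axis), with a point for each library and a line for the mean of the 2. KCNB2 and KCNJ6 have points above 0 in overexpression libraries only, and KCNAB1 is low in both overexpression and knockdown libraries.

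Channels gated by calcium or sodium split by direction, with 3 of 8 members higher, 2 lower, 2 tested without a call and KCNU1 at 0. KCNT1, the sodium-activated Slack channel, had 34 and 38 counts in parental, 1430 and 1297 in overexpression, 599 and 587 in KD control and 461 and 499 in knockdown libraries, a log2 fold change of 5.20 (SE 0.125). KCNN3 and KCNN1, small-conductance SK channels that follow the action potential, had log2 fold changes of 4.18 (SE 0.171) and 2.46 (SE 0.113). KCNN3 rose from 23 and 25 to 472 and 426 counts, and KCNN1 from 128 and 163 to 854 and 785. KCNMA1, the large-conductance BK channel, had the most KCN counts in parental libraries, 12881 and 15674, against 3427 and 2484 in overexpression, 5709 and 5585 in KD control and 7034 and 6432 in knockdown libraries. Parental libraries were highest and overexpression lowest, and the log2 fold change was -2.33 (SE 0.063, adjusted p = 4.58e-10). KCNN4, the intermediate-conductance channel known from non-excitable and proliferating cells, had 1046 and 1442 counts in parental and 203 and 145 in overexpression libraries, and 790 to 991 in the knockdown experiment (log2 fold change -2.88, SE 0.109). The related KCNN2 had 1 and 2 counts in parental and 42 and 34 in overexpression libraries, a ratio of 24.5 (8.08 to 122), but its mean normalized count of 19.4 fell below the threshold of a call.

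Inward rectifiers had 8 of 16 members higher, 0 lower, 4 tested without a call and 4 too low to test. KCNJ6 (GIRK2), a channel opened by G proteins and shown with its promoter above, had 237 and 176 counts in overexpression libraries and 0 in all others, at least 65.7-fold higher than parental. Its relative KCNJ9 (GIRK3) had 11 and 7 counts in parental and 362 and 378 in overexpression libraries (log2 fold change 5.31), with 123 to 143 in the knockdown experiment. KCNJ8, the Kir6.1 pore of channels shut by ATP, had 5 and 9 counts in parental and 359 and 365 in overexpression libraries, a log2 fold change of 5.64 (SE 0.251). KCNJ10, the Kir4.1 channel best known in glia, had 2 and 0 counts in parental and 109 and 107 in overexpression libraries, a ratio of 105 (28.6 to 869). It lies 11.4 kb from KCNJ9, and leaving out single libraries gave fitted log2 fold changes between 5.49 and 9.79. KCNJ2 (Kir2.1), the most abundant inward rectifier over the 8 libraries, had 294 and 339 counts in parental and 1844 and 1529 in overexpression libraries (log2 fold change 2.37, SE 0.076), with 2227 to 2504 in KD control and knockdown. The pore KCNJ11 (Kir6.2) rose by a log2 fold change of 3.96, and ABCC8, the sulfonylurea receptor that it pairs with, had 2 and 7 counts in parental and 208 and 238 in overexpression libraries. KCNJ12 and KCNJ18, near-identical copies with 32.4% and 62.3% of their exonic 31-base sequences repeated in the genome, cannot be separated with certainty.

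K2P channels carry leak current. Of 15 members 2 were higher, 1 was lower, 9 were tested without a call and 3 were too low to test. At an adjusted p below 0.05 and any fold change or level, 9 of the 12 tested were higher and 1 lower. Of all 20835 genes tested, 12663 passed that p in either direction. Some of the 9 K2P genes had few parental counts and passed the filter through their overexpression counts, which ties their direction to that filter. KCNK3 (TASK-1), an acid-sensitive leak channel, had 46 and 51 counts in parental, 731 and 619 in overexpression, 496 and 519 in KD control and 413 and 430 in knockdown libraries, a log2 fold change of 3.75 (SE 0.132). KCNK15 had 14 and 8 counts in parental and 69 and 46 in overexpression libraries (log2 fold change 2.31, SE 0.361), and 22.4% of its exon bases overlap a gene on the other strand. KCNK2 (TREK-1), a mechanically gated leak channel, fell from 1631 and 1997 to 1034 and 791 counts, a log2 fold change of -1.04 (SE 0.064). It had only 177 to 237 counts in the knockdown experiment, and its log2 fold change fell short of the threshold without replicate 2 of overexpression (-0.99), with upper quartile normalization (-0.96) and with a length and GC correction without or with the replicate block (-0.98 in both). KCNK1 (TWIK-1), the most abundant K2P channel over the 8 libraries, had 1230 and 1471 counts in parental and 1469 and 1282 in overexpression libraries, which overlapped. It had 1147 and 1185 counts in KD control and 570 and 648 in knockdown libraries, a log2 fold change of -0.89 (SE 0.088) that missed the threshold of 1.

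Auxiliary subunits had 2 of 17 members higher, 2 lower, 8 tested without a call and 5 too low to test. KCNAB1 (ENSG00000169282), the Kvβ1 subunit that speeds the inactivation of Kv1 pores, had 7799 and 9663 counts in parental, 2355 and 1861 in overexpression, 6315 and 6009 in KD control and 1940 and 1836 in knockdown libraries. Both control groups lay above both treated groups, and the log2 fold change in overexpression was -2.10 (SE 0.051, adjusted p = 2.19e-10). KCNE4, which inhibits several Kv pores, had 72 and 80 counts in parental and 11 and 9 in overexpression libraries (log2 fold change -2.96, SE 0.291). In the knockdown experiment KCNE4 had 32 and 35 counts in KD control and 18 and 21 in knockdown libraries, without a call (log2 fold change -0.73). KCNMB4, the neuronal β4 subunit of the BK channel, had 223 and 257 counts in parental and 649 and 687 in overexpression libraries, a log2 fold change of 1.44 (SE 0.134). KCNMB4 was thus higher where its pore KCNMA1 was lower. KCNIP4, which binds Kv4 pores, had a log2 fold change of 1.40 (SE 0.306), with 45.1% of its exon bases overlapped on the other strand.

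Less ZMYND8 went with few calls, in libraries whose adrenergic sums were lower and mesenchymal sums higher than in KD control, as given above. PRRX1 and SNAI2 of the mesenchymal list went the other way and were lower. The part of these markers in the changes was not tested. In knockdown against KD control libraries, 52 of the 96 members were tested, 2 were called higher and 1 lower, where all 19789 genes tested gave 1.36% higher and 0.596% lower. KCNAB1 was the member called lower, with a log2 fold change of -1.66 (SE 0.062, adjusted p = 2.30e-07). KCNG1, a silent subunit, was higher with 622 and 535 counts in knockdown against 314 and 236 in KD control libraries (log2 fold change 1.12, SE 0.153, adjusted p = 0.000472). Without replicate 2 of KD control it was 0.89 and no longer called. KCNE1, the accessory subunit that slows KCNQ1, had 33 and 25 counts in knockdown and 13 and 12 in KD control libraries (log2 fold change 1.25, SE 0.363, adjusted p = 0.0294). Its call was lost without any 1 of the 4 libraries, with 64.7% of its exonic 31-base sequences repeated in the genome. KCNJ8 was not called with all libraries (-0.63), and had -1.06 and a call without replicate 2 of knockdown. At an adjusted p below 0.05 and any fold change, 7 of the 52 tested members were higher and 11 lower, beside 13.4% and 10.8% of all genes tested. The median log2 fold change of the tested members was -0.23, against -0.01 over all genes tested, and was -0.12 with all 8 libraries in 1 fit.

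The effects of overexpression and knockdown can be set side by side, since the experiments share no library. In a fit over the 8 libraries, the effect of overexpression minus that of knockdown passed the same thresholds in 34 of the 78 members tested in the positive direction and 5 in the negative, where all 22619 genes tested gave 11.1% and 7.66%. Members with few counts outside overexpression, such as KCNH7, passed the filter and the count threshold through their overexpression counts. The share in the positive direction is thus tied to that filter. The difference was -2.63 (SE 0.091) log2 units for KCNMA1, -2.97 (SE 0.182) for KCNN4 and -1.45 (SE 0.219) for KCNG1. It was 3.49 (SE 0.076) for KCNH2. For KCNAB1 it was -0.44 (SE 0.082), short of the threshold, as both effects were negative. KCNB2, KCND3 and KCNJ6 had 0 counts in both groups of the knockdown experiment, so their difference could not be estimated. Of the 51 members tested in both comparisons, 15 had an adjusted p below 0.05 in both at any fold change. Of these, 8 were higher in overexpression and lower in knockdown, among them KCNH2, KCNH6, KCNC1, KCNC4, KCND1, KCNAB3 and KCNJ11. KCND1 was lost from these with a length and GC correction (adjusted p = 0.118, edgeR) and without replicate 1 of parental (0.0645). KCNQ5, KCNMA1 and KCNG1 were lower in overexpression and higher in knockdown, 3 members, KCNAB2 and KCNK6 among them, were higher in both, and KCNAB1 was lower in both. KCNG1 had an adjusted p of 0.0478 in overexpression with edgeR, which was 0.114 with upper quartile normalization, 0.145 with DESeq2, 0.078 with all 8 libraries, 0.0559 with the replicate block, and 0.253 and 0.223 without replicate 2 of parental and of overexpression. Of all 18504 genes tested in both comparisons, 3529 passed in both. Of these 3529 genes, 61.7% had opposite signs, and 722 were higher in overexpression and lower in knockdown. The knockdown effects of those named among the 8 ran from -0.34 for KCNH2 to -0.81 for KCNJ11 on the log2 scale.

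**Figure D3:**
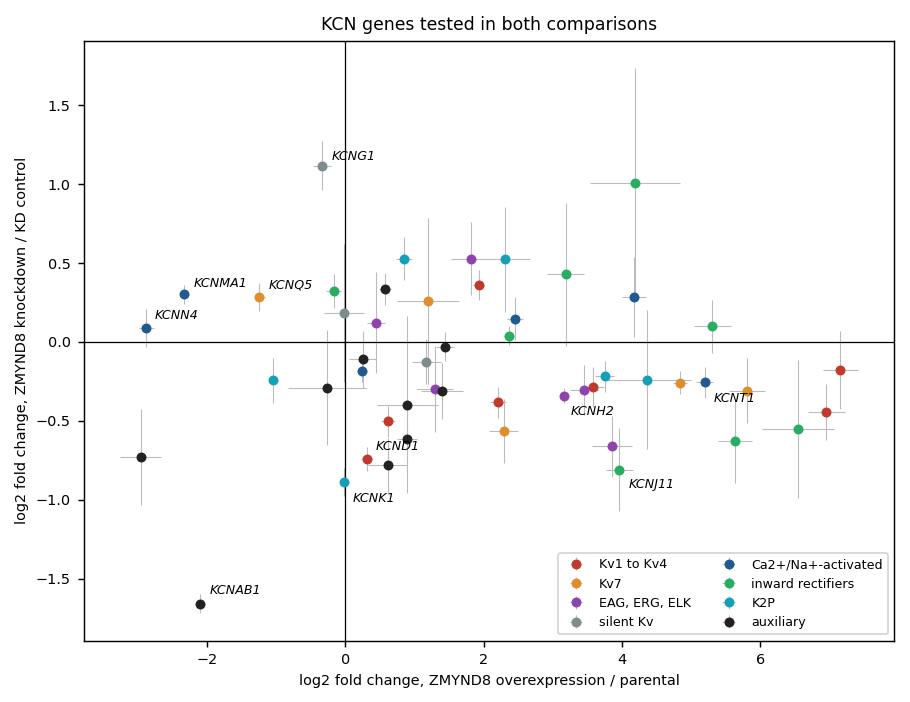
Log2 fold changes of the 51 KCN genes tested in both comparisons, with overexpression against parental on the x axis and knockdown against KD control on the y axis, colored by class, with bars for standard errors. KCNAB1 lies lowest, at the lower left, and KCNE4 (-2.96 and -0.73) lies further left and less far below 0. Most genes with large positive values on the x axis lie close to 0 on the y axis.

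Across the 4 groups the make-up of the set differed by class. Levels here are normalized counts per kb of exon, so that genes can be compared, summed over the members of a class, as mean ± SD over 2 libraries. All classes together had 4362 ± 68.0 in parental, 5996 ± 274 in overexpression, 4688 ± 117 in KD control and 3704 ± 3.08 in knockdown libraries. EAG, ERG and ELK channels made up 4.28% of this sum in parental and 21.4% in overexpression libraries, and 18.0% and 18.1% in KD control and knockdown. KCNH2 alone was 62.8%, 81.1%, 90.9% and 90.2% of that class in parental, overexpression, KD control and knockdown libraries. Inward rectifiers made up 3.90% and 14.6%, against 11.8% and 15.4%, and Kv7 channels 4.79% and 12.5%, against 7.06% and 8.74%. Auxiliary subunits made up 36.3% in parental, 11.4% in overexpression, 25.6% in KD control and 15.4% in knockdown libraries. KCNAB1 alone was 31.5% of the parental sum, at 1373 ± 17.9 per kb, with KCNK2, KCNK1, KCNN4 and KCNMA1 next, at 453 ± 2.10, 411 ± 4.94, 390 ± 34.5 and 389 ± 0.0972. KCNN4 differed from neither KCNK1 nor KCNMA1 beyond its own spread. In overexpression libraries KCNH2 led with 1042 ± 18.9, and lower levels were those of KCNK1 with 404 ± 18.5, KCNAB1 with 319 ± 7.79 and KCNJ2 with 313 ± 2.99, where KCNAB1 and KCNJ2 did not differ beyond their spread. KCNAB1, KCNH2 and KCNJ2 led in KD control libraries with 847 ± 60.6, 767 ± 20.4 and 397 ± 18.4, and KCNH2 and KCNJ2 in knockdown libraries with 605 ± 9.22 and 408 ± 19.9. KCNAB1 with 268 ± 9.40 and KCNN4 with 261 ± 20.5 came next there and did not differ beyond their spread.

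**Figure D4:**
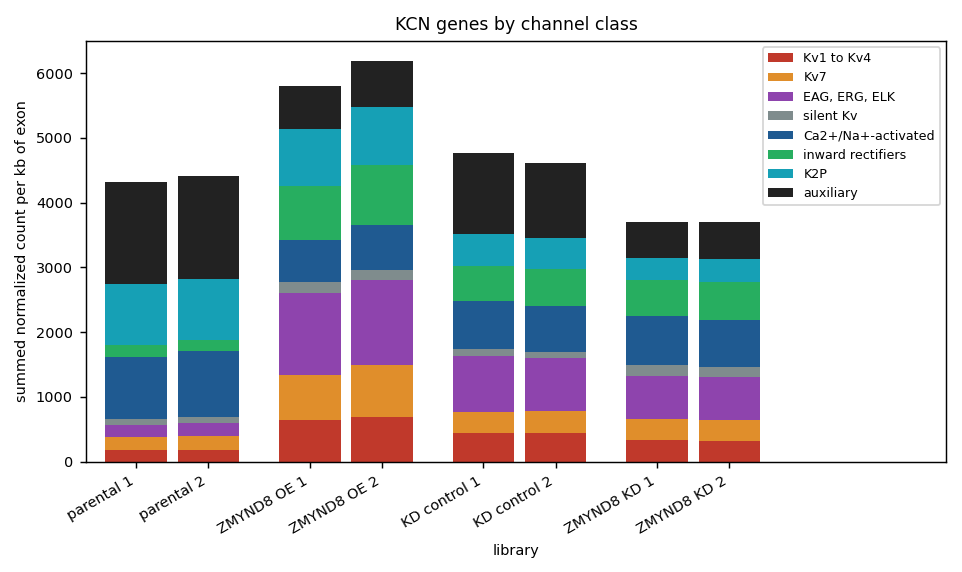
Normalized counts per kb of exon (y axis) summed over the members of each channel class, stacked for each of the 8 libraries (x axis). Auxiliary and K2P genes make up most of the parental bars, and EAG, ERG and ELK channels are the widest band in overexpression libraries.

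The 2 control groups also differed from each other. Among the 54 members with a mean above 20 over the 8 libraries, KD control was at least 2 times parental in 27 and parental at least 2 times KD control in 12. Over all 17704 genes tested at that level these shares were 13.9% and 12.8%. Overexpression was the highest of the 4 groups in 35 of the 54, and parental the lowest in 35, beside 31.7% and 26.7% of all genes. That mean includes overexpression, and KCNB2, KCND3 and KCNJ6, with 0 counts in the other groups, passed it through overexpression alone. By ties at 0 they also entered both counts of the control groups and the count with parental lowest. These counts are thus tied to the choice by that mean. The adrenergic sums were 17463 to 17571 in parental and 53268 to 56921 in KD control libraries, and the mesenchymal sums 545524 to 571369 and 255933 to 264469, and their part in the order of the groups was not tested. KCNH2 and KCNK3, given above, are examples of genes that were low in parental and not in KD control libraries. These groups came from different experiments and the parental cells also had Dox, so culture, experiment and Dox cannot be told apart, and no test was made between them.

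**Figure D5:**
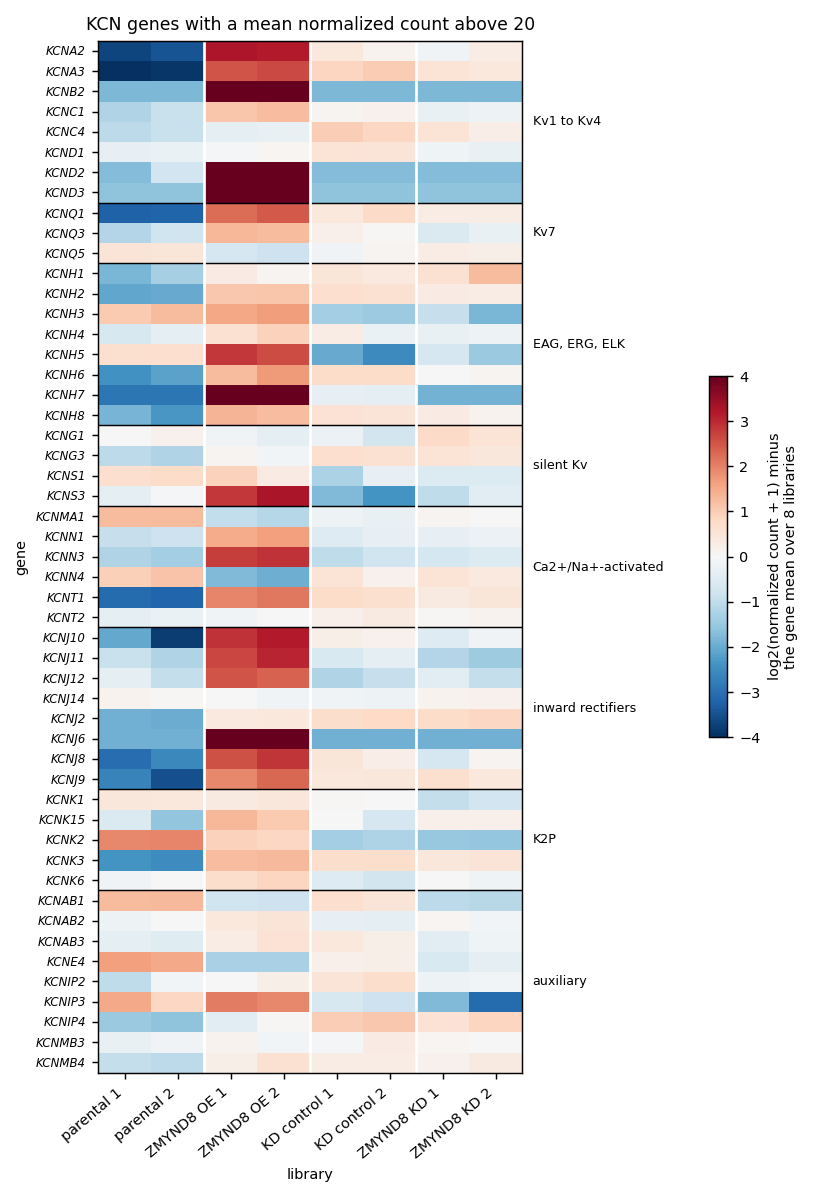
Log2 of the normalized count + 1 minus the gene mean over 8 libraries (color, values beyond ±4 drawn as ±4) for 51 of the KCN genes with a mean above 20 (rows, by class) in each library (columns). Parental is the lowest of the 4 groups in 32 of the 51 genes drawn and overexpression the highest in 32. Genes such as KCNB2 and KCNJ6, at 0 outside overexpression, are in these counts and passed that mean through overexpression alone.

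Genes of proteins that work with potassium channels were listed apart from the KCN set. The list had 30 genes, 29 of which had values here: HCN channels, DPP and ABCC subunits, LGI and ADAM proteins of the Kv1 complex, anchors and regulators. In overexpression 14 of the 27 tested were called higher and 2 lower, beside the same 11.8% and 6.84% of all genes tested. Genes with few or no parental counts, such as HCN4 and LGI2, passed the filter through their overexpression counts. The share called higher is thus tied to that filter. HCN4, a pacemaker channel opened by hyperpolarization, had 0 counts in parental and 126 and 128 in overexpression libraries, at least 41.1-fold higher. DPP6, the subunit that speeds Kv4 gating, had 18 and 21 counts in parental, 1343 and 1283 in overexpression, 570 and 653 in KD control and 487 and 509 in knockdown libraries (log2 fold change 6.03). CNTNAP2, which clusters Kv1 channels at axons, had 81 and 121 counts in parental and 718 and 611 in overexpression libraries (log2 fold change 2.68). The 2 called lower were the scaffold genes DLG1 and ANK3, with log2 fold changes of -1.08 and -1.83. In knockdown 21 were tested, and RGS7, a regulator of the G proteins that open GIRK channels, was the member called higher, with 129 and 107 counts against 53 and 54 (log2 fold change 1.19, adjusted p = 0.00162), and 0 were lower, beside 1.36% and 0.596% of all genes tested. RGS7 was also higher in overexpression, with 107 and 86 counts against 8 and 16 in parental libraries. The genes named here were chosen after their values were seen.

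Called members can also be described by features of their genes that the choice by symbol did not use. The 36 called higher in overexpression had a median gene span of 82.9 kb, against 50.4 kb for the 1878 protein-coding genes called higher and 27.3 kb for all protein-coding genes. The median span was 40.6 kb over the 96 members and 12.9 kb in the 21 not tested. The 6 called lower had a median span of 366 kb, against 57.0 kb for all protein-coding genes called lower, and hold some of the longest members, KCNMA1 with 768769 bases, KCNQ5 with 577062 and KCNAB1 with 501438. The median G+C content of exons was 49.4% in members called higher, 45.3% in those called lower and 52.6% over the 96. Promoter windows of members called higher, 39 windows of 24 genes, had a median of 28 CG dinucleotides, beside 21 for all protein-coding genes called higher. Those of members called lower had a median of 5 in 11 windows, of which KCNAB1 gave 5, beside 17 for all protein-coding genes called lower. These 11 windows ran from 1 to 54 CG dinucleotides, and the window with 54 was of KCNMA1. Windows of genes tested and not called had a median of 16 in members and 25 in all protein-coding genes. Of members that lie within 200 kb of each other, KCNA2 and KCNA3, and KCNJ10 and KCNJ9, were both called higher. KCNA10, 0.661 kb from KCNA2, had at most 5 counts. KCNJ15, 34.2 kb from KCNJ6, had at most 2 counts in parental and overexpression libraries. KCNA10 and KCNJ15 were too low to test, so whether they moved with their neighbours cannot be told. With few genes in each set these are descriptions only.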

How the data were processed

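SK-N-SH RNA was depleted of ribosomal RNA and sequenced in pairs, in 8 libraries of 4 groups. The authors deposited counts, whole numbers of reads per gene with no normalization, made with Trim_Galore, Hisat2 on GRCh38 and featureCounts. The methods name GENCODE 28. The strand setting is not given in the sources used here. Of 60662 lines, 3 of a split gene were left out, and 60418 of the 60659 genes matched GENCODE 44, which gave symbols and biotypes. Columns were assigned by the names in the sample titles.

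Genes passing filterByExpr were scaled by TMM, and edgeR 4.0.16 (limma 3.58.1, R 4.3.3) gave two-sided tests, each experiment on its own 4 libraries and the difference of effects on all 8, with adjustment over all genes tested. The p cutoff of the methods was replaced by the adjusted p. Standard errors are the log2 fold change over the square root of F. The fits were tested on simulated data. Totals of 38316523 to 56256979 counts set the precision, and intervals and bounds cover counting error only, with reads from PCR. No replicate pair agreed within counting noise (chi-square per degree of freedom 6.08 to 8.93). Named genes were, in each class and comparison, up to 3 called members with the largest increase and 3 with the largest decrease, every member called in knockdown, and the most abundant member of each class per kb. Members, lists and rules were chosen with earlier results of these data known, and members named beyond the rule were chosen after their values were seen. Other settings tried were DESeq2 1.42.0, normalization by RLE or upper quartile, other filters and thresholds, all 8 libraries in 1 fit, the replicate block, a length and GC correction, and each library left out. Python 3 with pandas and SciPy made the summaries. Some members are counted in the totals but not reported here by name.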

Additional observations from a re-analysis of the deposited data

How the results depend on the processing

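RLE normalization moved no count of calls by over 1.5 times. In overexpression, 22 KCN genes and 7 partner genes were higher at a mean above 100, and 1 partner gene was lower with upper quartile normalization. The KCN median was 2.60 with upper quartile normalization, 2.35 with DESeq2, 2.36 with no filter, and 2.45 with a length and GC correction. With each library left out, 34 to 39 KCN genes were higher and 5 to 6 lower, the median was 2.38 to 2.76, partner genes gave 11 to 15 and 2 to 3, and the difference of effects gave 37 to 39. In knockdown, 1 KCN gene was higher with DESeq2, with no filter, with all 8 libraries in 1 fit, at a mean above 100 and without the 18 genes whose reads are hard to place (an alternative added after seeing the data). With no threshold on fold change, 7 KCN genes were higher and 11 lower, and 3 partner genes were higher and 2 lower, while at a mean above 100 the count of partner genes higher was 0. With each library left out, 0 to 1 KCN genes were higher and 1 to 2 lower, partner genes gave 1 to 2 higher, and the median was -0.21 to -0.20. That median was -0.25 with upper quartile normalization, -0.23 with DESeq2 and with no filter, and -0.12 with all 8 libraries.

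Same-numbered libraries did not deviate together (correlations 0.00597 and -0.0129), so they share only a number. With the replicate block, 36 KCN genes were higher and 6 lower in overexpression, 2 and 1 in knockdown, and the knockdown median was -0.22. With the block and the length and GC correction, the overexpression median was 2.42.

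Signs turned for genes near 0 without a call. KCNK1 in overexpression was 0.061 with upper quartile normalization, 0.077 with the length and GC correction and 0.078 with that and the block, and -0.058 to 0.033 with each library left out. In knockdown with each library left out, KCNA2 was -0.41 to 0.020, KCNJ2 -0.014 to 0.089, KCNMB4 -0.12 to 0.052 and KCNN4 -0.099 to 0.29. The cause of these changes was not tested. At 2 libraries a group and few counts, KCN genes with under 20 normalized counts could not be called.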

Other observations

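GENCODE lists another 27 genes with a KCN symbol that are not protein-coding, mostly antisense and divergent lncRNAs of channel genes, and these were low. Of 8 tested in overexpression, 1 was called higher and 2 lower, beside 11.8% and 6.84% of all genes tested, and of 7 tested in knockdown 0 were called, beside 1.36% and 0.596%. For knockdown this is edgeR's count with all thresholds. KCNQ5-DT, which starts beside KCNQ5, had 51 and 62 counts in parental and 26 and 12 in overexpression libraries (log2 fold change -1.62), the direction of KCNQ5 itself. KCNMA1-AS1 had 65 and 60 counts in parental and 13 and 18 in overexpression libraries (-2.05), the direction of KCNMA1. In the knockdown experiment KCNMA1-AS1 had at most 2 counts, while KCNMA1 had 5585 to 7034. KCNJ2-AS1 had 37 and 51 counts in parental and 111 and 129 in overexpression libraries (1.42), the direction of KCNJ2. Whether the counting used strand was not stated, so reads of an antisense gene and of its partner cannot be told apart. KCNQ1OT1, the imprinted transcript within KCNQ1, had 606 and 639 counts in parental and 782 and 591 in overexpression libraries, and 1018 to 1559 in the knockdown experiment.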
